A study of Homo sapiens with 15 samples.

Results

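NFKBIA and the genes around it form the core of NF-kB signalling and its negative feedback. They were followed here in C42B cells, an established line derived from LNCaP human prostate cancer cells that grows without androgen. The members were chosen by gene symbol: NFKBIA, NFKBIB, NFKBIE, NFKB1, NFKB2, REL, RELA, RELB, TNFAIP3 and BIRC3. Of these 10 genes, 9 were measured, by 1 probe set each, among 17687 named genes in all, and BIRC3 is not analysed here. NFKBIA itself was picked from the results of these same arrays, so its levels and differences are given as a description, with no test. The other members were taken for their place in the pathway, though with earlier results of these data known.

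RNA of 15 samples was hybridised to whole-transcript Affymetrix arrays after 6 h of treatment. The cells received 10 µM enzalutamide with 15 µM PF-543 (3 arrays), 10 µM enzalutamide with 15 µM ABC294640 (3 arrays), 10 µM enzalutamide alone (2 arrays), 15 µM PF-543 alone (3 arrays), 15 µM ABC294640 alone (1 array) or 0.125% DMSO, the vehicle (3 arrays). Enzalutamide blocks the androgen receptor, PF-543 inhibits sphingosine kinase 1 and ABC294640 (opaganib) inhibits sphingosine kinase 2. All groups grew in RPMI medium with 10% fetal bovine serum, and the labels list no cytokine that activates NF-kB in any of them. No label tells if replicates came from separate cultures, and the p-values therefore describe a spread between arrays that could be technical.

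The cells carried the markers of their label. Of 10 prostate epithelial markers 9 were measured, and 8 of them, among them KLK3, FOLH1 and HOXB13, had a mean level between the 92.8th and 99.6th percentile of all genes, with TMPRSS2 at 68.5. The 4 measured leukocyte and the 4 measured stromal or endothelial markers lay between the 8.6th and 46.5th percentile. On the first principal component, with 15.3% of the variance over all genes, the 12 treated arrays lay between -11.6 and 0.03 and the DMSO arrays between 18.9 and 24.8. Treatment as such and this separation cannot be told apart in a comparison with DMSO, so differences between treated groups stand beside those against DMSO.

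NF-kB is a family of dimeric transcription factors built from the subunits RELA, RELB, REL, p50 (from NFKB1) and p52 (from NFKB2). In resting cells the inhibitors of kB, made by NFKBIA, NFKBIB and NFKBIE, hold the dimers in the cytoplasm. After a stimulus the IKK kinases mark the inhibitors for degradation and the dimers enter the nucleus. There they induce NFKBIA and TNFAIP3 (the ubiquitin editor A20), among other genes, and these products shut the signal off again. The arrays measured transcripts only, and neither inhibitor protein nor nuclear NF-kB was measured.

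The promoters of NFKBIA and TNFAIP3 are shown because both genes belong to this feedback and are classical NF-kB targets. Their array values differed in pattern, but also in mean signal, at percentile 88.4 of all genes for NFKBIA and 48.2 for TNFAIP3. Each run is the 250 bases before the RefSeq start of the gene in GRCh38.p14, 5′ to 3′ on the strand of the gene. Capitals mark matches to the 10-base kB consensus of NF-kB dimers on either strand. The NFKBIA window is chr14:35404750-35404999 on the minus strand and the TNFAIP3 window chr6:137867009-137867258 on the plus strand.
NFKBIA: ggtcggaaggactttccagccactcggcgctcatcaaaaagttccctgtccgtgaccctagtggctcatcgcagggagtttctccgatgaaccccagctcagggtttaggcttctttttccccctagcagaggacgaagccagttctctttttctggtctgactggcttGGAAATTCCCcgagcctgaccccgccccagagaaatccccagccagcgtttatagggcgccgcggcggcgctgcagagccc
TNFAIP3: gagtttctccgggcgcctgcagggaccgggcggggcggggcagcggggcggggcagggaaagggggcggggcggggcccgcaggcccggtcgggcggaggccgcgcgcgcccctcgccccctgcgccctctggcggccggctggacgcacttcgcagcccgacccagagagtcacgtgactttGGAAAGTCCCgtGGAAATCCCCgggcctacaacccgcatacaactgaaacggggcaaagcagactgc

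The NFKBIA window held 1 match, which began 81 bases before the start. The TNFAIP3 window held 2 matches, which began 67 and 55 bases before the start, and all 3 matches read on the opposite strand. RefSeq entries were found for 7 of the 9 measured members and for BIRC3, with 13 windows in all, since some genes have several starts. At least 1 match stood in 8 of these 13 windows, against 5.21% of 35116 promoter windows of the same length. The members were chosen as NF-kB genes, and a match is a description of the letters, not a bound site. The only measured member with an entry and no match was RELA. The steroid receptor half-site AGAACA, searched on both strands, was found in 0 of the 13 windows and in 12.39% of all windows. With 13 windows, several of them from the same gene, a count of 0 cannot be told from that share.

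NFKBIA, the inhibitor that binds and retains RELA dimers, was lower in every group that received enzalutamide. With enzalutamide and PF-543 its log2 expression was 11.55, 12.02 and 11.85, with enzalutamide and ABC294640 it was 11.97, 11.77 and 11.77, and with enzalutamide alone it was 11.96 and 11.90. Without enzalutamide it was 12.70, 12.59 and 12.68 with PF-543, 12.55 on the ABC294640 array, and 12.61, 12.51 and 12.56 with DMSO. The 8 arrays with enzalutamide and the 7 arrays without it did not overlap, and the gap between the nearest arrays of the 2 sets was 0.49 in log2 units.

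**Figure D1:**
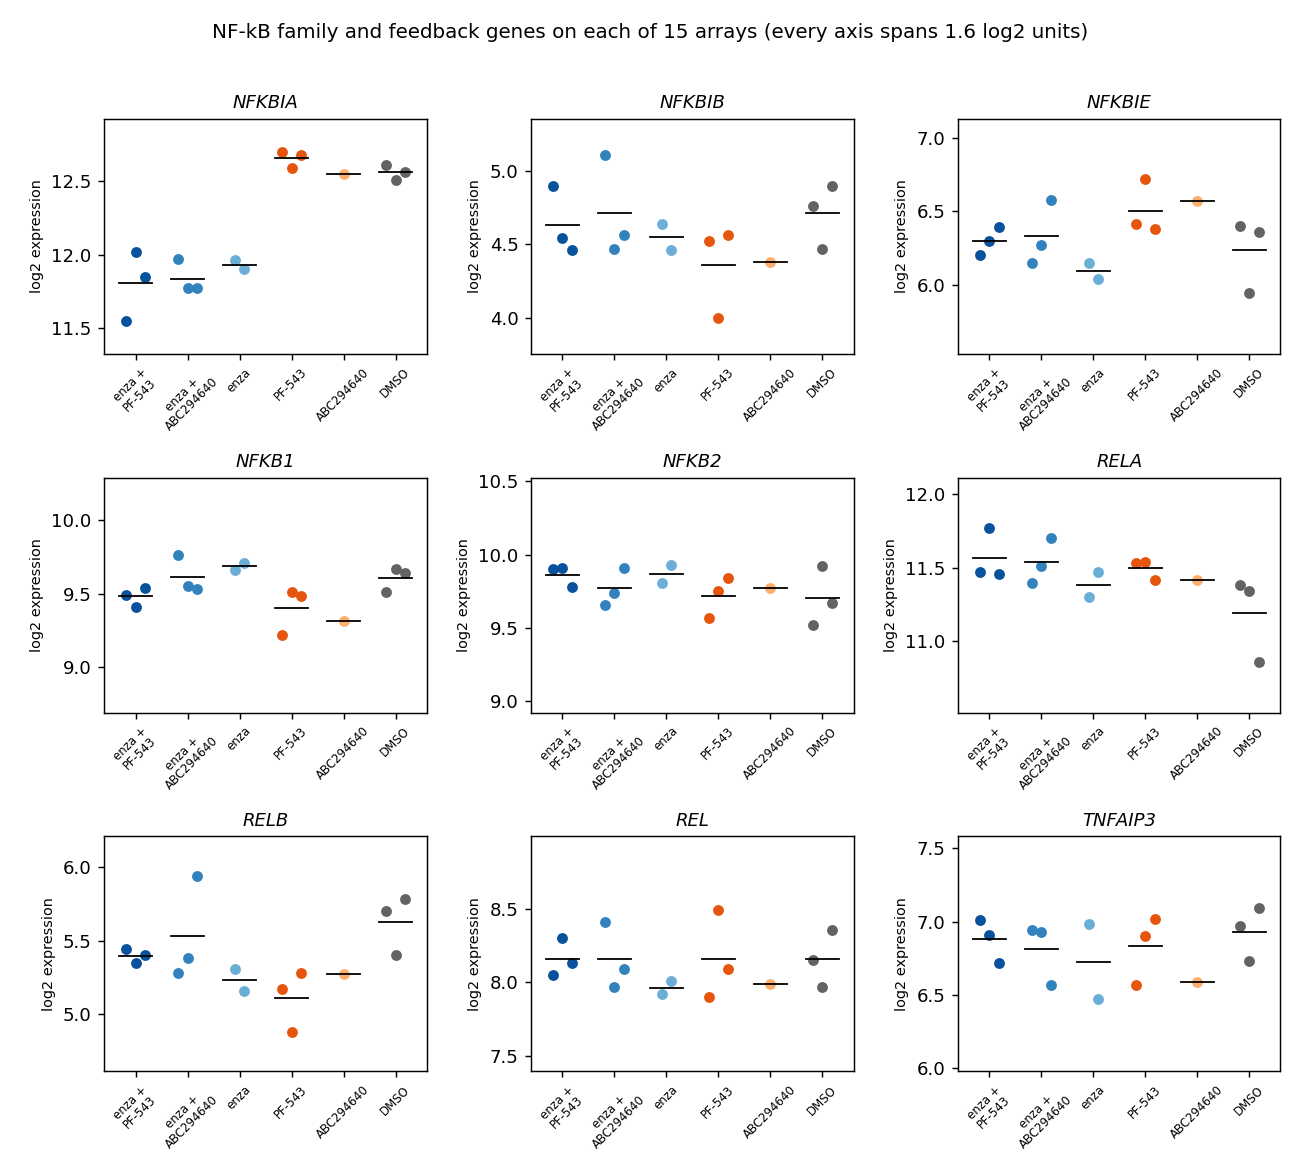
Log2 expression (vertical axis, every panel spanning the same number of log2 units) of the 9 measured members on each array, by treatment group (horizontal axis; enza, enzalutamide). Points are arrays and bars are group means. NFKBIA lies at 12.02 or lower on the 8 arrays with enzalutamide and at 12.51 or higher on the 7 arrays without, while the 2 sets of arrays overlap for the other 8 genes.

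NFKBIA was lower with enzalutamide in each of the 3 settings in which it could be compared. Enzalutamide added to PF-543 gave a mean of 11.81 ± 0.24 (SD, n = 3), against 12.66 ± 0.06 (SD, n = 3) with PF-543 alone, a log2 difference of -0.85 (SE 0.11, 95% interval -1.09 to -0.61) or 1.8-fold. Added to ABC294640 it gave 11.84 ± 0.12 (SD, n = 3), against the single array at 12.55, a log2 difference of -0.71 (SE 0.16, 95% interval -1.06 to -0.37). Enzalutamide alone gave 11.93 ± 0.04 (SD, n = 2), against 12.56 ± 0.05 (SD, n = 3) with DMSO, a log2 difference of -0.63 (SE 0.13, 95% interval -0.90 to -0.36). The first 2 differences hold no DMSO array. NFKBIA was picked from these values, so intervals that leave out 0 are no support for a difference. The mean over the 3 settings was log2 -0.73 (SE 0.08), and the enzalutamide difference with PF-543 minus that without was log2 -0.22 (95% interval -0.59 to 0.15).

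NFKBIA levels with either sphingosine kinase inhibitor overlapped those without it, both alone and on top of enzalutamide. PF-543 against DMSO gave log2 0.10 (95% interval -0.15 to 0.34), and the single ABC294640 array against DMSO gave log2 -0.01 (95% interval -0.36 to 0.34). On top of enzalutamide the differences were log2 -0.12 (95% interval -0.40 to 0.15) for PF-543 and log2 -0.09 (95% interval -0.37 to 0.18) for ABC294640. At the same doses and time, PF-543 and ABC294640 differed by log2 -0.03 with enzalutamide (95% interval -0.27 to 0.21) and by log2 0.11 without it (95% interval -0.24 to 0.45). These intervals leave room for changes of about the size of their bounds and do not show that the inhibitors act alike.

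In the order of its group means, NFKBIA was highest with PF-543, then with DMSO, ABC294640, enzalutamide, enzalutamide with ABC294640, and enzalutamide with PF-543. The only neighbours in this order whose arrays did not overlap were ABC294640 and enzalutamide, 0.62 apart in log2 units. The group means of NFKBIA spanned 0.85 log2 units. The spans of the other 8 members lay between 0.17 and 0.52, and their residual SDs between 0.13 and 0.24.

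Of the 8 other members, none passed in any of the 13 comparisons between treatments, in either direction (limma, adjusted p under 0.05 over all genes, smallest adjusted p = 0.167), and none passed the moderated F test over the 6 groups (smallest adjusted p = 0.397). At an unadjusted p under 0.05 the count was 1 member in each of 5 comparisons (PF-543 against DMSO, both combinations against DMSO, the enzalutamide difference with PF-543 minus that without, and the mean enzalutamide difference) and 0 in the other 8 and in the F test. In those 5 comparisons 8.07% to 18.7% of all genes had an unadjusted p under 0.05, against 12.5% for 1 of 8 members.

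Few genes of any kind passed, which is the background for that count. The share of all 17687 genes past the threshold was 0.311% for enzalutamide against DMSO, 0.565% for PF-543 against DMSO, 0% for ABC294640 against DMSO, 2.02% for enzalutamide with PF-543 against DMSO and 0.701% for enzalutamide with ABC294640 against DMSO. Against enzalutamide alone it was 0.0283% for the combination with PF-543 and 0% for that with ABC294640. Enzalutamide added to PF-543 gave 0.311% and added to ABC294640 gave 0.0792%. PF-543 against ABC294640 gave 0.0961% with enzalutamide and 0.017% without. The difference between the enzalutamide effects with and without PF-543 gave 0%, the mean enzalutamide difference 0.882% and the F test 0.78%. Of all genes, 0.475% lay lower and 0.198% higher on all 8 arrays with enzalutamide than on all 7 without. NFKBIA was among the lower ones, and 0 of the 8 other members stood in either set. With such shares a count of 0 of 8 is near the background and is no result about the members as a set.

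**Figure D2:**
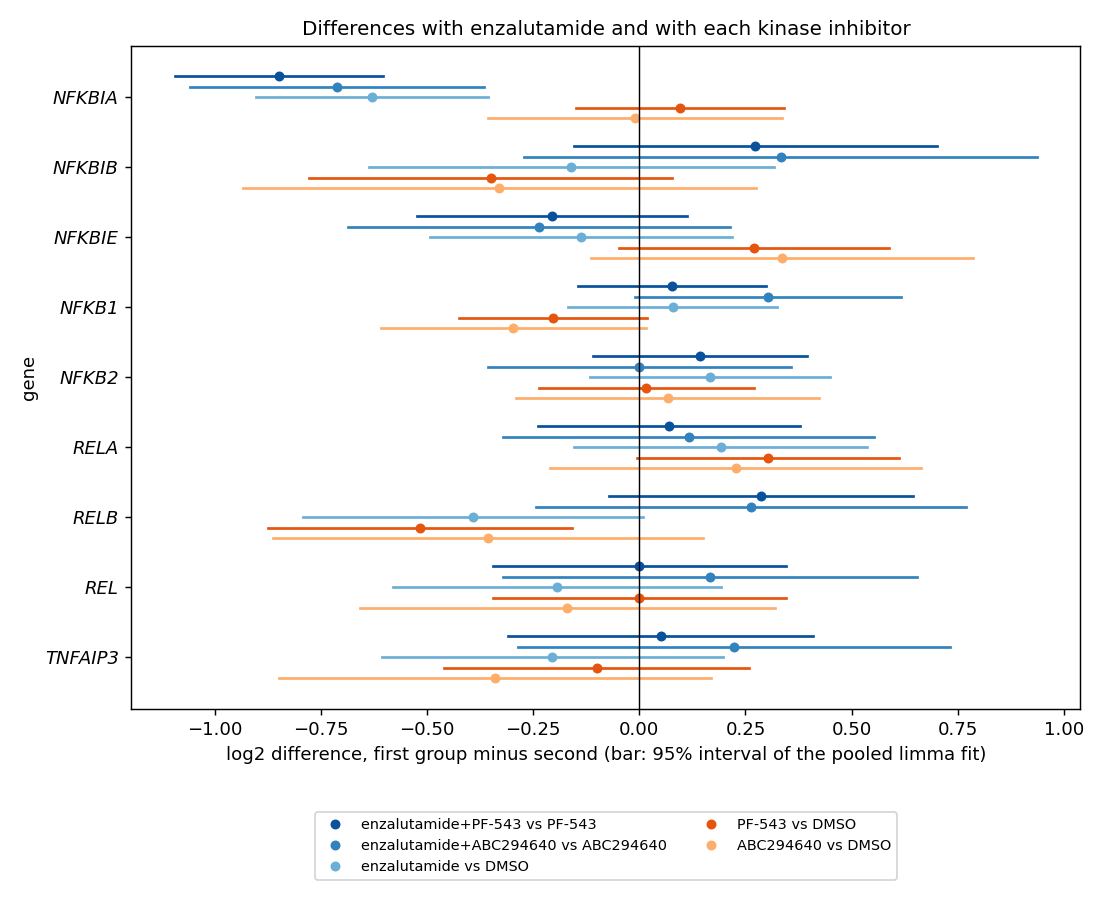
Log2 difference (horizontal axis) of each member (vertical axis) for enzalutamide added to PF-543, to ABC294640 or to vehicle (blue) and for each inhibitor against DMSO (orange). Points are differences, first group minus second, and bars are 95% intervals of the fit pooled over 15 arrays. For NFKBIA, which was picked from these arrays, the 3 enzalutamide differences lie between -0.85 and -0.63. Because of that pick its bars are no test.

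Of the other inhibitors of kB, neither passed in any comparison, and both were measured at low signal, with mean levels at the 23.6th (NFKBIB) and 44.4th (NFKBIE) percentile of all genes, within the range of the leukocyte and stromal markers. A change of these transcripts may therefore not have been detectable. NFKBIB encodes an inhibitor that is resynthesised more slowly than the NFKBIA product. Its probe set was dim, at 4.46 to 5.11 on arrays with enzalutamide and 4.0 to 4.90 on arrays without, where the first quartile of all genes lay at 4.62 to 4.76. Its mean enzalutamide difference was log2 0.15 (95% interval -0.14 to 0.44, limma adjusted p = 0.777).

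NFKBIE encodes an inhibitor that also holds REL and RELA dimers. It measured 6.20, 6.30 and 6.39 with enzalutamide and PF-543, 6.15, 6.27 and 6.58 with enzalutamide and ABC294640, and 6.15 and 6.04 with enzalutamide alone. It measured 6.41, 6.72 and 6.38 with PF-543, 6.57 with ABC294640, and 6.40, 5.94 and 6.36 with DMSO. These ranges overlap, and the mean enzalutamide difference of NFKBIE was log2 -0.19 (95% interval -0.41 to 0.02, limma adjusted p = 0.546). The difference of NFKBIE was below 0 in each setting, at log2 -0.21 on top of PF-543, -0.24 on top of ABC294640 and -0.14 against DMSO. Against DMSO, however, both combinations were above 0, at log2 0.06 with PF-543 and 0.10 with ABC294640. The share of all genes with the same sign in each setting was not counted.

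The precursors NFKB1 and NFKB2, which give p50 and p52 and act as inhibitors while unprocessed, are themselves NF-kB targets. NFKB1 had a median of 9.55 and a range of 9.41 to 9.76 on the 8 arrays with enzalutamide, against a median of 9.51 and a range of 9.22 to 9.67 on the 7 without. Its mean enzalutamide difference was log2 0.15 (SE 0.07, unadjusted p = 0.0488, limma adjusted p = 0.485). NFKB2 had the narrowest span of group means, 0.17 log2 units, with a range of 9.66 to 9.93 with enzalutamide and 9.52 to 9.92 without.

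RELA, the main activating subunit, measured 11.47, 11.77 and 11.46 with enzalutamide and PF-543, and 11.40, 11.51 and 11.70 with enzalutamide and ABC294640. With DMSO it measured 11.38, 11.34 and 10.86. PF-543 alone gave 11.53, 11.54 and 11.42, and ABC294640 alone gave 11.42. All arrays of both combinations and of both inhibitors alone lay above all DMSO arrays, and the third DMSO array stood lowest of all 15. The share of all genes separated from DMSO in that way was not counted. The DMSO arrays also stood apart on the first principal component, so this separation is a description only. Enzalutamide alone, at 11.30 and 11.47, overlapped DMSO (log2 0.19, limma adjusted p = 0.661). PF-543 alone was at log2 0.30 from DMSO (limma adjusted p = 0.331). The differences against DMSO were log2 0.37 (SE 0.14, limma adjusted p = 0.18) with PF-543 in the combination and log2 0.34 (SE 0.14, limma adjusted p = 0.266) with ABC294640. Without the third DMSO array the differences of RELA were log2 0.21 and 0.18 (adjusted p = 0.432 and 0.56). With a robust and trended prior in the same test RELA passed for enzalutamide with PF-543 against DMSO (adjusted p = 0.0481). Against enzalutamide alone, with no DMSO array, RELA was at log2 0.18 with PF-543 added and 0.15 with ABC294640 added (limma adjusted p = 0.83 and 0.908).

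RELB, the subunit of the alternative pathway that pairs with p52, measured 5.17, 4.88 and 5.28 with PF-543, against 5.70, 5.40 and 5.78 with DMSO. The PF-543 arrays all lay below the DMSO arrays, at a log2 difference of -0.52 (SE 0.17, limma adjusted p = 0.167), the smallest adjusted p of any member. The share of all genes with such a separation was not counted, so the separation is a description only. For PF-543 against DMSO 15.5% of all genes had an unadjusted p under 0.05. RELB was dim, with a mean level at the 35.5th percentile of all genes, so a change may not have been detectable. Enzalutamide with PF-543 gave 5.44, 5.35 and 5.40, all above PF-543 alone and at log2 0.29 from it (limma adjusted p = 0.704). Enzalutamide alone, at 5.31 and 5.16, also lay below DMSO (log2 -0.39, limma adjusted p = 0.401). So did the single ABC294640 array, at 5.27, while enzalutamide with ABC294640, at 5.28, 5.38 and 5.94, overlapped DMSO. The enzalutamide difference of RELB with PF-543 minus that without was log2 0.68 (95% interval 0.14 to 1.22, limma adjusted p = 0.539), which did not pass.

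REL, a subunit best known from lymphoid cells, had means of 7.97 to 8.16 over the 6 groups. Its arrays with enzalutamide ran from 7.92 to 8.41, and those without from 7.90 to 8.49. TNFAIP3, which removes activating ubiquitin chains from signalling proteins, measured 7.01, 6.91 and 6.72 with enzalutamide and PF-543, 6.94, 6.93 and 6.57 with enzalutamide and ABC294640, and 6.98 and 6.47 with enzalutamide alone. It measured 6.57, 6.90 and 7.02 with PF-543, 6.59 with ABC294640, and 6.97, 6.73 and 7.09 with DMSO. No pair of neighbours in the order of its group means was separated. The mean enzalutamide difference of TNFAIP3 was log2 0.02 (95% interval -0.22 to 0.27, limma adjusted p = 0.973). The mean level of TNFAIP3 lay at percentile 48.2 of all genes, so a change may not have been detectable.

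The genes whose levels followed those of NFKBIA most closely over the 15 arrays were sought among the 4350 other genes with group means at least 0.5 log2 units apart. The 5 with the highest Pearson correlation were SLC45A3, a prostate membrane transporter (r = 0.964), the zinc finger gene ZBTB10 (0.957), RHOU (0.954), C1orf116 (0.953) and the semaphorin SEMA6D (0.950). The 3 with the lowest were LMO4 (-0.913), STC2 (-0.903) and VDR, the vitamin D receptor (-0.880). For all 8 genes, as for NFKBIA, the 8 arrays with and the 7 without enzalutamide did not overlap. Of all genes, 0.475% lay lower and 0.198% higher in this way. The 8 genes were picked by their correlation with NFKBIA, so their separation follows largely from that pick and is no support. Within the arrays with enzalutamide, r for the first 5 genes ran from 0.143 (C1orf116) to 0.847 (ZBTB10), and within those without from -0.684 (ZBTB10) to 0.912 (SEMA6D). These values are a description, and the arrays share 1 normalization.

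For the first 5 genes the mean levels with and without enzalutamide lay further apart than those of NFKBIA. SLC45A3 averaged 11.52 on the arrays with enzalutamide and 12.83 on those without. C1orf116 averaged 10.42 and RHOU 9.65 with enzalutamide, against 12.84 for C1orf116 and 11.60 for RHOU without. LMO4 went the other way, at 10.71 with enzalutamide and 10.13 without. The other members had correlations with NFKBIA from r = -0.488 for NFKB2 to 0.318 for NFKBIE.

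**Figure D3:**
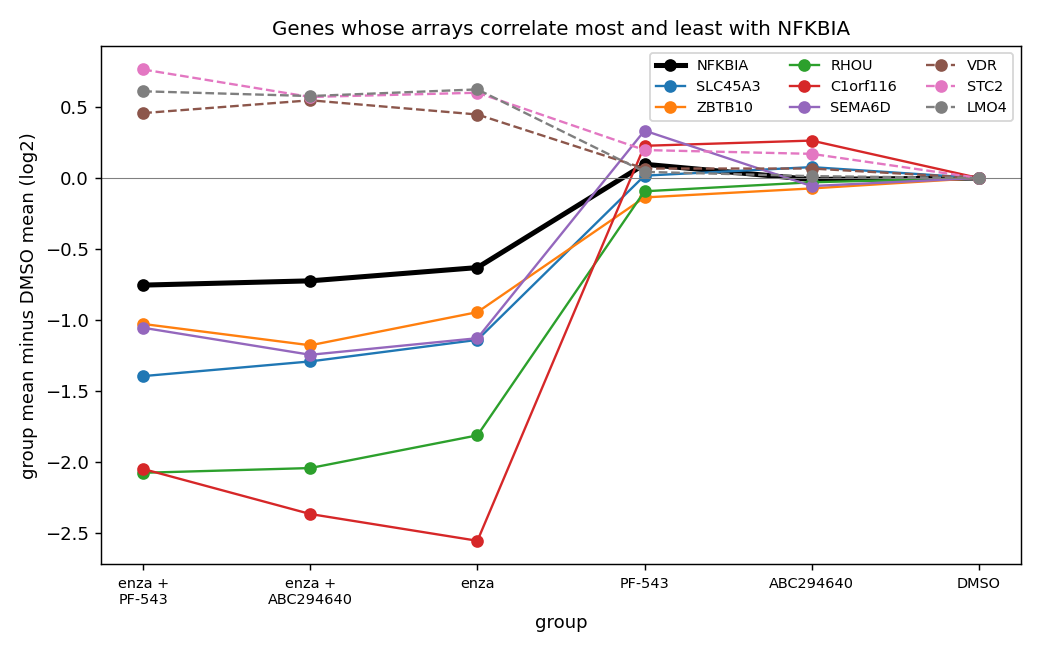
Group mean minus DMSO mean in log2 units (vertical axis) for NFKBIA (black), the 5 genes with the highest correlation with it (solid) and the 3 with the lowest (dashed), by group (horizontal axis; enza, enzalutamide). Lines join the groups for reading only. The solid lines lie well below 0 in the 3 groups with enzalutamide and nearer 0 with either inhibitor alone, and the dashed lines lie above 0 with enzalutamide.

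Further genes of the pathway were taken from 5 lists with 83 genes, of which 72 were measured. For enzalutamide against DMSO 1 of the 72 rose and 1 fell, and for enzalutamide with PF-543 against DMSO 2 rose and 3 fell. For enzalutamide with ABC294640 against DMSO, and for enzalutamide added to PF-543, 1 fell and 0 rose. For the mean enzalutamide difference 1 rose and 1 fell. In the other 8 comparisons 0 of 72 passed (limma), with 3 to 14 genes (4.17% to 19.4%) at an unadjusted p under 0.05, against 5.64% to 15.5% of all genes. The calls were 2.78% of the 72 genes for enzalutamide against DMSO (0.311% of all genes), 6.94% for enzalutamide with PF-543 against DMSO (2.02%), 1.39% for enzalutamide with ABC294640 against DMSO (0.701%), 1.39% for enzalutamide added to PF-543 (0.311%) and 2.78% for the mean enzalutamide difference (0.882%). They rest on 1 to 5 genes each, and TNFAIP8 is among them every time.

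TNFAIP8, a TNF-induced gene whose product protects from cell death, fell with enzalutamide. It measured 7.85, 7.60 and 7.56 with enzalutamide and PF-543, 7.69, 7.79 and 7.68 with enzalutamide and ABC294640, and 7.44 and 7.72 with enzalutamide alone. It measured 8.48, 8.52 and 8.17 with PF-543, 8.35 with ABC294640, and 8.62, 8.67 and 8.62 with DMSO. As for NFKBIA, all 8 arrays with enzalutamide lay below all 7 without. The log2 difference was -1.06 for enzalutamide against DMSO (SE 0.13, limma adjusted p = 0.00321), -0.72 for enzalutamide added to PF-543 (SE 0.12, adjusted p = 0.0206) and -0.63 for enzalutamide added to ABC294640 (SE 0.17, adjusted p = 0.35). The mean enzalutamide difference of TNFAIP8 was log2 -0.80 (SE 0.08, adjusted p = 0.000178). The first call was lost without enzalutamide replicate 1 (log2 -0.92, adjusted p = 0.0619), and the second without any 1 of PF-543 replicates 1 and 2 and combination replicates 2 and 3 (adjusted p from 0.108 to 0.126) and when only the arrays compared were fitted (adjusted p = 0.223).

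MAP3K8, a kinase that unprocessed NFKB1 protein binds and restrains, was the other gene called in several comparisons. It measured 7.97, 8.21 and 7.83 with enzalutamide and PF-543, 7.60, 7.70 and 7.83 with enzalutamide and ABC294640, and 8.59 and 8.07 with enzalutamide alone. It measured 7.75, 7.32 and 7.63 with PF-543, 7.76 with ABC294640, and 7.19, 7.06 and 6.91 with DMSO. The DMSO arrays were the 3 lowest of all 15. MAP3K8 rose against DMSO with enzalutamide (log2 1.28, SE 0.17, limma adjusted p = 0.00578) and with enzalutamide and PF-543 (log2 0.95, SE 0.16, adjusted p = 0.00999). In comparisons that hold no DMSO array the difference was log2 0.44 for enzalutamide added to PF-543 (adjusted p = 0.453) and -0.05 for enzalutamide added to ABC294640 (adjusted p = 0.993). Without enzalutamide replicate 1 the call against DMSO was lost (log2 1.02, adjusted p = 0.0864). The mean enzalutamide difference of MAP3K8 was log2 0.55 (adjusted p = 0.0301), a call lost without any 1 of 8 arrays (adjusted p from 0.0527 to 0.0754).

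**Figure D4:**
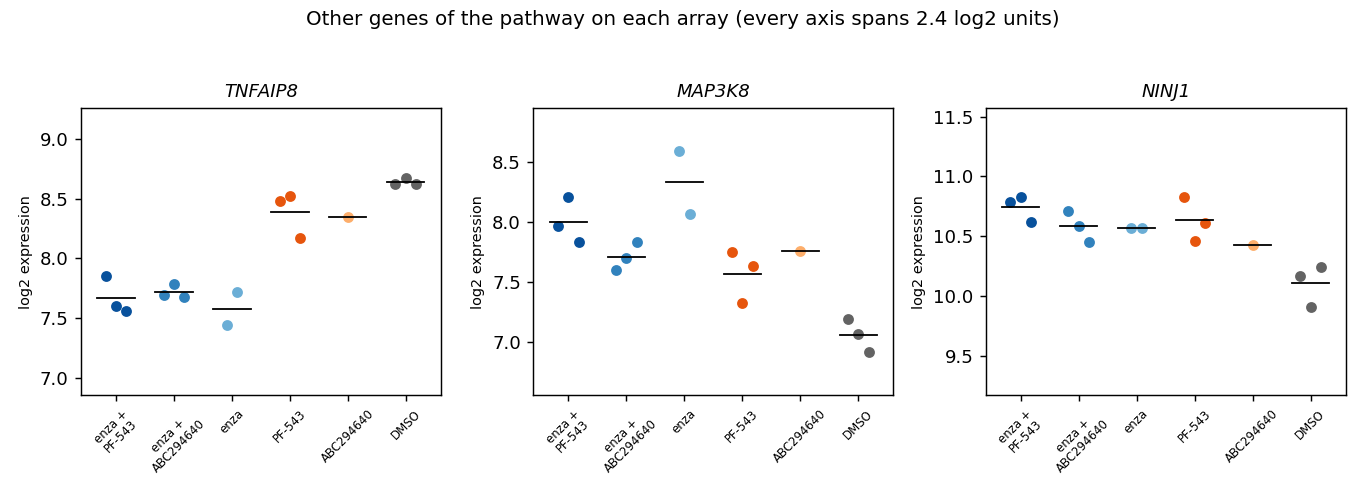
Log2 expression (vertical axis, panels with the same span) of TNFAIP8, MAP3K8 and NINJ1 on each array by group (horizontal axis; enza, enzalutamide). Points are arrays and bars are group means. TNFAIP8 lies at 7.85 or lower on arrays with enzalutamide and at 8.17 or higher without, whereas MAP3K8 and NINJ1 are lowest on the 3 DMSO arrays.

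Among the other target genes, LTB, a cytokine of the TNF family, and CSF1, the macrophage growth factor, fell and NINJ1, an adhesion gene with a part in membrane rupture, rose for enzalutamide with PF-543 against DMSO. LTB was at log2 -0.81 (SE 0.17, limma adjusted p = 0.0287), CSF1, a dim probe set, at -0.46 (SE 0.11, adjusted p = 0.047) and NINJ1 at 0.64 (SE 0.12, adjusted p = 0.0208). None of them passed for enzalutamide added to PF-543, at log2 -0.45 for LTB, 0.06 for CSF1 and 0.11 for NINJ1 (adjusted p from 0.471 to 0.928). With PF-543 alone LTB averaged 7.03, CSF1 4.91 and NINJ1 10.63. With DMSO the 3 genes averaged 7.39, 5.43 and 10.11, and with the combination 6.58, 4.97 and 10.75. Of the 32 measured target genes, 4 (12.5%) passed for enzalutamide with PF-543 against DMSO, where 2.02% of all genes did, and the list had a median of log2 -0.12 there, against -0.01 for all genes. Many targets were dim. All group means of IL6, IL1A, IL1B, CXCL10, CCL20, PTGS2, IRF1 and BCL2A1 lay below 4.62, the lowest first quartile of any array. Other targets were brighter. A change of the dim genes may not have been detectable, which limits the count and the median.

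The upstream lists gave few calls. Of 10 measured IKK and other kinase genes, MAP3K8 was the 1 that passed in any comparison. No receptor or adaptor (14 measured), no ubiquitin editor (14 measured) and neither of the 2 measured atypical inhibitor genes passed in any comparison (limma). NFKBIZ and NFKBID, of the last list, were at log2 -0.12 and 0.29 for the mean enzalutamide difference (adjusted p = 0.592 and 0.407). TNFRSF1A, the main TNF receptor, and the adaptor TRAF1 were at log2 0.31 and -0.47 for enzalutamide with PF-543 against DMSO (adjusted p = 0.0605 and 0.11). PF-543 alone had similar means. TNFRSF1A averaged 11.46 with PF-543 alone, 11.50 with the combination and 11.19 with DMSO. TRAF1, a dim probe set, averaged 4.65 with PF-543 alone, 4.65 with the combination and 5.11 with DMSO. OTULIN, which cuts linear ubiquitin chains, measured 10.24, 10.25 and 10.21 with enzalutamide and PF-543, against 10.98, 10.81 and 10.67 with PF-543 alone. These OTULIN arrays did not overlap, at log2 -0.59 (SE 0.12, adjusted p = 0.0729). The share of all genes separated in this way was not counted. Enzalutamide against DMSO gave -0.05 for OTULIN. For the enzalutamide difference with PF-543 minus that without, the smallest adjusted p of any ubiquitin editor was 0.481 (limma). OTULIN was high with PF-543 alone, at log2 0.46 from DMSO (adjusted p = 0.101), and at -0.13 from DMSO with enzalutamide and PF-543 (adjusted p = 0.616). PDLIM2, a ubiquitin ligase for nuclear RELA, was at log2 0.25 for the mean enzalutamide difference (adjusted p = 0.279).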

How the data were processed

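The deposited unit is log2 expression, 1 value per probe set and array, made by the authors with RMA and Transcriptome Analysis Console 4.02, per the submitters' processing notes. RMA corrects background, normalizes arrays and summarises probes, so a shift shared by most genes would not show. The sources used here do not give the variant of RMA or the genome build, and no detection calls were used. Of 21448 probe sets 17709 carried 1 symbol and 3739 none, and for 20 genes with several the brightest was kept (17687 genes). Array medians lay at 6.71 to 6.76 and 0 pairs of arrays were identical. The number of arrays limits the precision.

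limma 3.58.1 in R 4.3.3 fitted a mean per group to all 15 arrays (9 residual and 3.82 prior degrees of freedom), with Benjamini-Hochberg adjustment over all genes and a threshold of 0.05. The single ABC294640 array borrows the spread of the other groups. The mean enzalutamide difference, CD83 and alternatives for TNFAIP8 and MAP3K8 were added after values were seen.

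The members and lists were chosen with earlier results of these data known. The naming rule took all members, every gene of the 5 lists past the threshold in a comparison or in the F test, the 2 with the smallest F-test p where a list had none, and the genes most and least correlated with NFKBIA. Same-numbered arrays of different groups did not deviate together (26 pairs, correlations of deviations from -0.04 to 0.07). The 52 pairs with different numbers ran from -0.05 to 0.04. The fit therefore used no pairing, though these values cannot show that same-numbered arrays were handled apart. Alternatives were quantile, median and cyclic loess normalization, a filter on the dimmest 25% of genes, a fit to every probe set, array weights, a robust and trended prior, only the arrays compared, the replicate block, and leaving out each array. Sequences are from RefSeq (GRCh38.p14). Figures used matplotlib 3.10.9 in Python 3.11.15.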

Additional observations from a re-analysis of the deposited data

How the results depend on the processing

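Up to 24 alternatives could be fitted to a comparison, 22 where the ABC294640 array alone was compared and 21 for the mean enzalutamide difference and the F test. Under those, the count of other members past the threshold stayed at 0, except that it was 1, RELA, for enzalutamide with PF-543 against DMSO with a robust and trended prior. All 303 alternative values of NFKBIA lay within 1 residual SD of the value given. Over them the enzalutamide difference ran from log2 -0.96 to -0.72 on top of PF-543, from -0.78 to -0.68 on top of ABC294640 and from -0.66 to -0.60 against DMSO. For TNFAIP3 the difference of enzalutamide against DMSO was log2 -0.46 without enzalutamide replicate 1 and 0.05 without replicate 2. Without replicate 3 of the combination with ABC294640, RELB was at log2 -0.30 against DMSO in place of -0.09. The filter on dim genes removed NFKBIB. With the replicate block, which left out the ABC294640 array, NFKBIA stayed at log2 -0.85 for enzalutamide added to PF-543 and the member counts stayed at 0.

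Counts over all genes depended more on the processing. For enzalutamide against DMSO the 55 genes became 3 to 266, for PF-543 against DMSO the 100 became 9 to 547, and for the combinations against DMSO the 358 became 31 to 1121 (PF-543) and the 124 became 23 to 599 (ABC294640). For enzalutamide added to PF-543 the 55 became 17 to 147, and added to ABC294640 the 14 became 0 to 38. The 5 genes of PF-543 added to enzalutamide became 0 to 47, the 17 between the combinations 4 to 28, the 3 between the inhibitors alone 0 to 18, and the 0 of the difference of effects up to 12. The mean enzalutamide difference ran from 149 to 344 in place of 156, and the F test from 133 to 741 in place of 138. ABC294640 added to enzalutamide gave 0 or 1, and ABC294640 against DMSO 0 to 8. With 1 array left out, enzalutamide against DMSO gave 12 to 58 genes, PF-543 against DMSO 25 to 100, the combinations against DMSO 115 to 358 (PF-543) and 49 to 124 (ABC294640), enzalutamide added to PF-543 24 to 55 and to ABC294640 8 to 16, the 2 combinations 3 to 17, the inhibitors alone 1 to 3, PF-543 added to enzalutamide 0 to 6, the mean enzalutamide difference 103 to 138 and the F test 62 to 110. The cause was not tested. TNFAIP8 and MAP3K8 lost their calls for enzalutamide against DMSO when only the arrays compared were fitted (adjusted p = 0.145 and 0.168), a fit with fewer arrays to estimate the spread, and so did MAP3K8 for enzalutamide with PF-543 against DMSO (adjusted p = 0.0574). With a robust and trended prior MAP3K8 also passed for enzalutamide with ABC294640 against DMSO (adjusted p = 0.0218).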

Other observations

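CD83, an NF-kB target best known as a marker of mature dendritic cells, was the 1 gene of the 32 measured targets that lay higher on all 8 arrays with enzalutamide than on all 7 without. Of all genes, 0.198% lay higher in this way. The separation was narrow, with a lowest level of 6.81 with enzalutamide and a highest of 6.79 without it (PF-543). CD83 was singled out after its values were seen. Its mean enzalutamide difference was log2 0.57 (SE 0.14, limma adjusted p = 0.0892), with 0.80 on top of PF-543, 0.23 on top of the single ABC294640 array and 0.69 against DMSO, none of which passed.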
